A study of Mus musculus with 2 samples.

Results

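The miR-148 and miR-152 family of mouse, made up of miR-148a, miR-148b and miR-152, was measured at embryonic day 13.5 (E13.5) in the 3rd mammary gland and, as the comparison, in the inter mammary gland region (the flank). Its 3 members were taken as the miRNA rows of the array named mmu-miR-148a, mmu-miR-148b or mmu-miR-152, out of 696 mouse miRNAs, and each was read by 2 probes of 10 spots, or 6 probes and 60 spots of 1937 and 13920 per array. Both tissues came from untreated embryos of the ICR strain. The flank sample, the control of the study, is the tissue lying between the 3rd gland and the 4th. Per region, 1 sample of total RNA (100 ng) carrying the dye Cy3 was put on 1 Agilent 1-colour miRNA array, and the sources do not say how many embryos gave the RNA. With 1 array per region there were no replicates, so no difference below has a replicate check and no test was run. Errors given as SE or SD come from the spread over spots of 1 array, and those beside the software's totals from Feature Extraction itself.

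A miRNA is a short RNA that guides Argonaute proteins to messenger RNAs, mostly through pairing of its seed, the bases near its 5′ end, and lowers the output of those messages. The miR-148 and miR-152 family is known for targeting DNA methyltransferases such as DNMT1, and miR-148a is one of the most abundant miRNAs of milk and of the lactating gland. The embryonic gland at E13.5 is a different tissue, an epithelial bud enclosed in dense mesenchyme, long before milk is made.

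The mature sequences are shown because the shared seed makes these miRNAs a family while a few other bases tell them apart. They are those of RefSeq on GRCm38.p6, with the seed (bases 2 to 8 from the 5′ end) in capitals, and the array's names without an arm were matched to the 3p strands.
miR-148a: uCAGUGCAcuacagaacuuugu
miR-148b: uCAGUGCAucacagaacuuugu
miR-152: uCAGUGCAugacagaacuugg
Among 1679 mature names in the RefSeq table, only these 3 carry this seed. With positions counted from the 5′ end, miR-148b differs from miR-148a at 2 positions (C9U and U10C), and the pair is identical over the last 12 bases. miR-152 is 21 bases long and differs from miR-148a at 3 of 21 positions (C9U, U10G and U20G) and from miR-148b at 2 (C10G and U20G). A run of 9 bases, acagaacuu, follows these central differences in all 3. Whether a probe of one member also binds another was not tested.

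The genes lie on different chromosomes. In GRCm38.p6 the hairpin of Mir148a is at chr6:51269812-51269910 on the minus strand, that of Mir148b at chr15:103285125-103285221 on the plus strand and that of Mir152 at chr11:96850393-96850465 on the plus strand. The array files give no coordinates of their own. Mir148b lies within the span of Copz1 and Mir152 within that of Copz2, which encode paralogous subunits of the COPI vesicle coat. Mir148a lies in the span of a predicted gene, Gm38821, between Npvf and Nfe2l3. The table gives spans only, so exon and intron were not separated.

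All 3 members were detected in both regions. Detection of a probe needed over 50% of its spots to be well above background, the software's mark for a spot clearly brighter than background, and a miRNA needed 1 such probe. All 60 spots of the 3rd mammary gland and all 58 that were not outliers in the flank were well above background. Each was also brighter than the brightest negative control spot that was not an outlier (17.3 and 19.2, in the arbitrary units of the scanner). Of all miRNAs on the array, 40.8% were detected in both regions. No miRNA spot was saturated.

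miR-148a, the member known from milk, gave less signal in the 3rd mammary gland than in the flank. Before scaling, its first probe read 547 at the lowest, 611 at the median and 694 at the highest of 10 spots in the 3rd mammary gland. In the flank the same probe read 732, 749 and 773 over 8 spots, with 2 outliers left out. These ranges do not overlap, the gland lying below, although an outlier left out in the flank, at 646, lies inside the range of the gland. The second probe read 689, 774 and 890 in the 3rd mammary gland. Its values in the flank were 872, 957 and 1003. Here the brightest spot of the gland passed the dimmest of the other region, although each of the 10 positions printed on both arrays was dimmer in the gland.

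Arrays were then made comparable by dividing the signals of each by a 75th percentile, taken over the probes that both arrays detected. After this scaling neither probe of miR-148a had overlapping ranges, but how often this held among all probes was not counted. The log2 ratio, 3rd mammary gland over flank, was -0.400 ± 0.0387 (SE over spots) for the first probe and -0.397 ± 0.0427 for the second. Both probes thus gave nearly the same ratio, differing by 0.0039 on the log2 scale. For 234 of the 244 miRNAs with several probes detected in both regions the probes differed by more. With the probes averaged, the scaled signal was 0.897 ± 0.0167 in the gland and 1.18 ± 0.0096 in the flank (SE over spots). miR-148a was therefore 1.32-fold lower in the 3rd mammary gland (log2 ratio -0.40 ± 0.03). In its own totals, Feature Extraction gave 934 (error 67.0) in the gland and 1101 (error 78.6) in the flank, unscaled. The quotient of these unscaled totals was 0.849 (log2 ratio -0.24), beside -0.27 for the unscaled probe signals. With the totals scaled the log2 ratio was -0.30.

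miR-148b, which shares all but 2 bases with miR-148a, gave more signal in the 3rd mammary gland. Its first probe was dim, at 46.1 (lowest), 59.6 (median) and 68.2 (highest) over 10 spots in the gland. In the flank that probe read 31.7, 38.8 and 48.5. Before scaling the ranges overlap only at their ends, with most spots of the gland above all those of the flank. The second probe read 223, 248 and 272 in the gland, and 184, 209 and 227 in the flank. Again the ranges overlapped slightly before scaling. After the scaling the overlap was wider in both probes. The first ran from 0.0586 to 0.0867 in the gland and from 0.0441 to 0.0675 in the flank. The second ran from 0.283 to 0.347 in the gland and from 0.256 to 0.315 in the flank. In both probes 10 of 10 positions were brighter in the gland before scaling and 9 of 10 after it. Before scaling the array of the gland was brighter for most miRNAs, with 25.7% of those detected in both regions having a ratio below 1.

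The size of the difference depended on the probe of miR-148b. Its first probe gave a log2 ratio of 0.42 ± 0.08 and the second 0.14 ± 0.04 (SE over spots). The probes differed by 0.28, and only 19 of 244 miRNAs had probes farther apart. Averaged, the scaled signal was 0.195 ± 0.0036 in the gland and 0.171 ± 0.0033 in the flank. This is a ratio of 1.14 (log2 ratio 0.18 ± 0.04), with an SE over spots that leaves out the difference between the probes. The totals of Feature Extraction were 203 (error 17.8) in the gland and 159 (error 14.6) in the other region.

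miR-152 also gave more signal in the 3rd mammary gland. The first probe read 219, 257 and 285.5 (lowest, median and highest of 10 spots) in the gland. In the flank it read 183, 205 and 222. The second probe read 252, 314 and 364 in the gland, and 233, 265 and 288 in the other region. The ranges of both probes overlapped. Before scaling all 10 positions of each probe were brighter in the gland, and after it 9 of 10 positions of the first probe and 7 of 10 of the second were. As for miR-148b, the counts before scaling include the brighter signal of the gland array for most miRNAs. The log2 ratios were 0.18 ± 0.05 and 0.13 ± 0.07. Averaged, the scaled signal was 0.362 ± 0.0094 in the gland and 0.326 ± 0.0044 in the flank, a ratio of 1.11 (log2 ratio 0.15 ± 0.04). Feature Extraction's totals were 377 (error 27.5) and 303 (error 22.2).

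**Figure D1:**
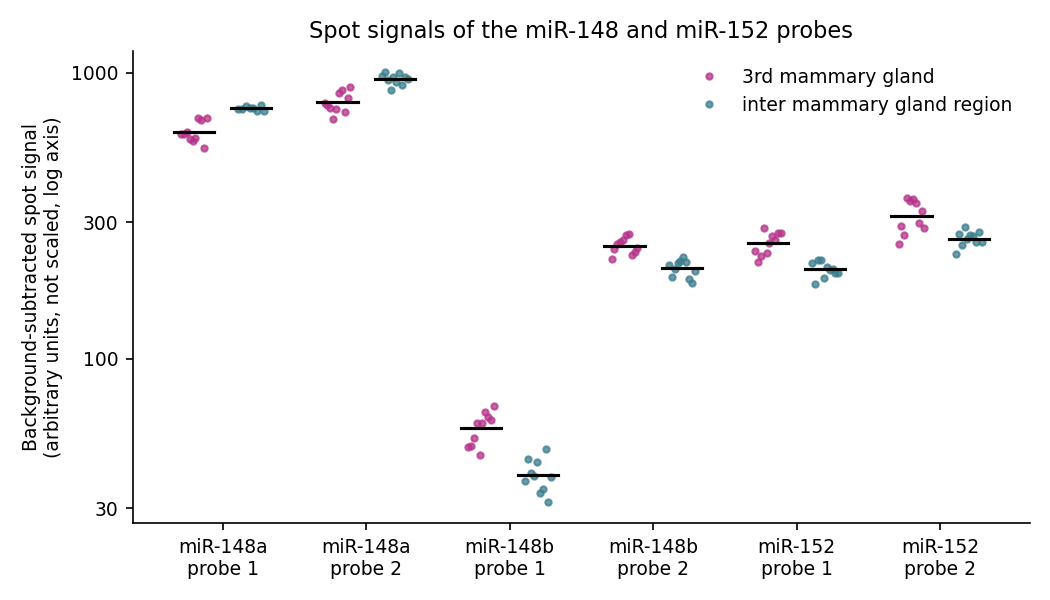
Background-subtracted signal of each spot that was not an outlier, in arbitrary units on a log axis and not scaled between arrays, for both probes of each member. Points are spots of 1 array per region and bars are their means. The spots of miR-148a lie lower in the 3rd mammary gland, while those of miR-148b and miR-152 lie higher. Without scaling the gland array was brighter for most miRNAs, with 25.7% of ratios below 1.

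**Figure D2:**
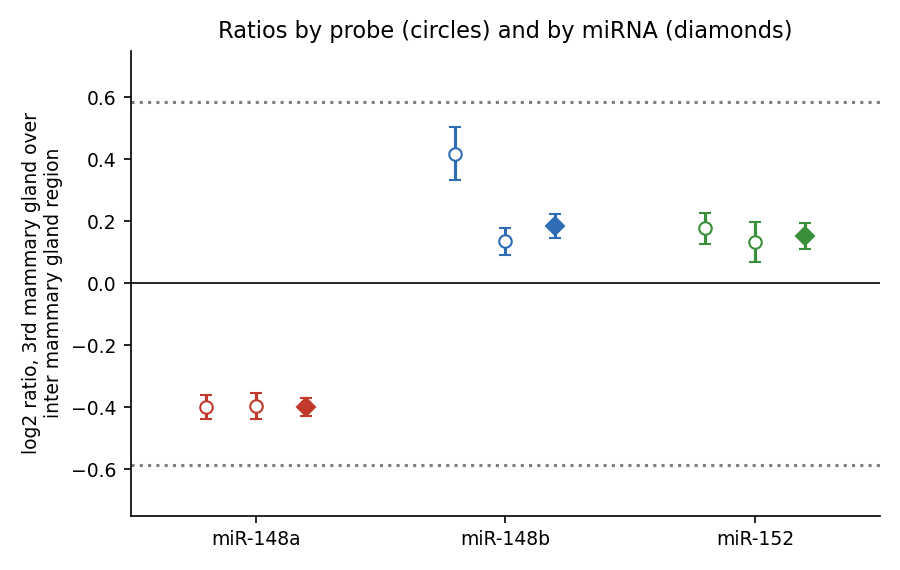
Scaled log2 ratio, 3rd mammary gland over flank, for each probe (open circles) and for each miRNA (diamonds). Error bars are the SE over spots, and dotted lines mark 1.5-fold. The probes of miR-148a coincide near -0.40, those of miR-148b stand apart at 0.42 and 0.14, and no value reaches 1.5-fold.

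None of the 3 members differed by 1.5-fold or more, the size used here in place of a test. Of the 284 miRNAs detected in both regions, 11.3% did, with 6 higher (2.11%) and 26 lower (9.15%) in the gland. The log2 ratio over these miRNAs had a median of 0.05 and a middle range (25th to 75th percentile) from -0.14 to 0.22. miR-148b and miR-152 lay inside this range, with 89 and 103 miRNAs having a higher ratio. miR-148a lay below it, with 34 of 284 miRNAs (12.0%) having a lower ratio. A ratio below 1, as that of miR-148a, was found for 42.3% of the miRNAs, and one above 1, as those of miR-148b and miR-152, for 57.7%. The median over the 3 members, that of miR-152, was 0.15.

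**Figure D3:**
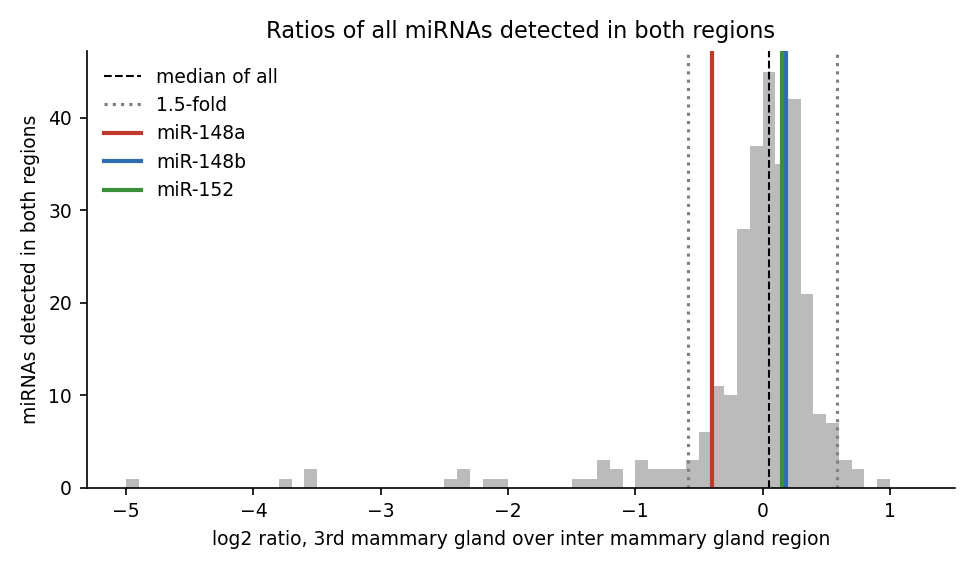
Number of miRNAs by log2 ratio, 3rd mammary gland over flank, over the 284 miRNAs detected in both regions, in steps of 0.1. The dashed line is their median (0.05), dotted lines mark 1.5-fold, and coloured lines are the family members. miR-148a lies left of the bulk but inside the 1.5-fold lines, and the other 2 lie within it.

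The scaling moved all ratios together, so the members were also set against each other, an arithmetic that no common factor can change. The log2 ratio of miR-148b exceeded that of miR-148a by 0.58 ± 0.05 (SE over spots), that is by 1.497-fold. The log2 ratio of miR-152 exceeded that of miR-148a by 0.55 ± 0.05, or 1.465-fold. The log2 ratio of miR-152 minus that of miR-148b was -0.03 ± 0.06. Probe by probe, the 4 combinations of a miR-148b with a miR-148a probe gave differences from 0.53 to 0.82, and the 4 of miR-152 with miR-148a gave 0.53 to 0.58. For miR-152 minus miR-148b the result depended on the probe. With the first probe of miR-148b the differences were -0.24 ± 0.10 and -0.28 ± 0.11, and with its second probe 0.04 ± 0.07 and -0.0011 ± 0.08. A difference of this size was not rare on these arrays. Among the 40186 pairs of miRNAs detected in both regions, 24.5% differed in their log2 ratios by at least as much as miR-148b and miR-148a, and 26.2% by at least as much as miR-152 and miR-148a. The median over all pairs was 0.29.

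The direction of each member was the same under each of the 13 alternatives in processing, which include 4 other scalings. Not all of these were separate checks. The deposited table repeats the unscaled totals, and the software's call of detection leaves the ratios of the members unchanged. Only a common divisor changed with no scaling, the 75th percentile of all probes and the median of the detected probes. Such a change cannot alter differences between members or their distance from the median of all miRNAs. Requiring every spot well above background also left the differences between members fixed. miR-148a ranged from -0.46 to -0.24 on the log2 scale, miR-148b from 0.11 to 0.35 and miR-152 from 0.09 to 0.31. The other scalings raised the median of all miRNAs by 0.12 to 0.16, and relative to that median miR-148a lay at -0.45 as reported and between -0.56 and -0.39 under the alternatives. Relative to the same median, miR-148b lay at 0.14 (0.08 to 0.14) and miR-152 at 0.10 (0.08 to 0.12). Against the background, 25.7% of the miRNAs had a ratio below 1 with no scaling. The split of all miRNAs past 1.5-fold moved as well, from 6 higher and 26 lower (18.75% higher) to 15 higher and 23 lower with no scaling or with the median of the detected probes, 14 and 22 after quantile normalization, and 19 and 22 where the 75th percentile was taken over all probes.

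**Figure D4:**
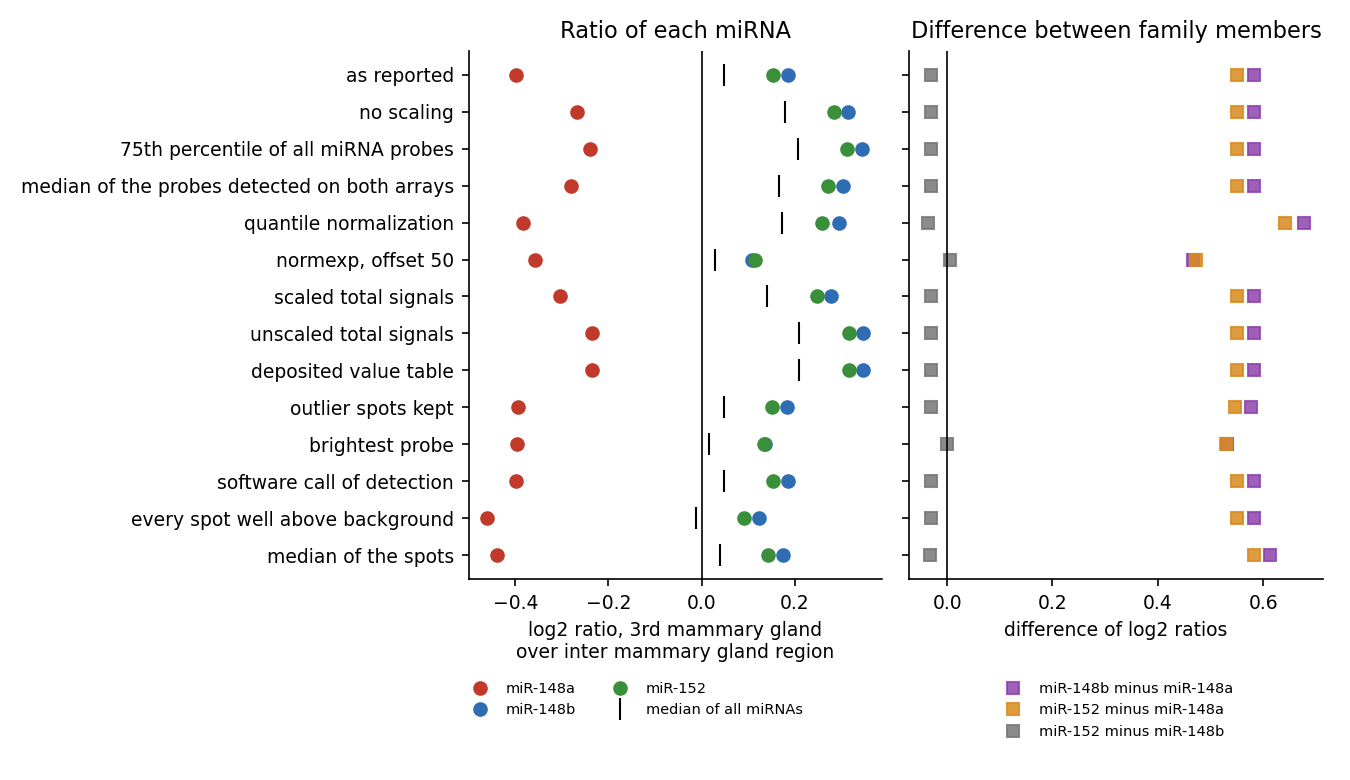
Left, log2 ratio of each member (points) and median over all miRNAs detected in both regions (ticks), 3rd mammary gland over flank, as reported and under 13 alternatives. Right, differences between the log2 ratios of the members under the same settings, with overlapping squares where differences coincide. miR-148a stays left of 0 and the other 2 right of it, and miR-148b and miR-152 exceed miR-148a by 0.47 to 0.68 throughout. Settings that change only a common divisor cannot alter these differences.

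The other strand of the miR-148a hairpin, miR-148a*, was on the array with 4 probes of 5 spots. Its RefSeq sequence (miR-148a-5p) is shown since it carries a seed of its own, outside the family.
miR-148a*: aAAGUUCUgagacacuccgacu
None of its 20 spots was well above background in either region. Spot signals lay between -9.53 and 5.92 in the 3rd mammary gland and between -8.45 and 11.2 in the flank, with negative controls at a mean of 3.81 ± 5.28 and 2.23 ± 5.07 (SD over 432 and 428 spots). miR-148a* was thus not detectable on these arrays, and no fold was taken.

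The tissues are mixtures, and fewer cells of a type cannot be told apart from less of a miRNA per cell. Markers of striated muscle were lower in the gland. All 4 of 4 (miR-1, miR-133a, miR-133b and miR-206) were past 1.5-fold lower in the 3rd mammary gland, with a median log2 ratio of -1.24 and a summed scaled signal of 2.09 there against 5.02 in the flank. Of the 284 miRNAs detected in both regions, 9.15% were that much lower. Of 7 epithelial markers (the miR-200 family, miR-203 and miR-205), 5 had ratios above 1 (6 under each of the other 4 scalings) and 0 passed 1.5-fold (1 under 3 of these scalings), with a median of 0.34 and sums of 13.9 and 13.3. Those above 1 as reported were the miR-200 family, while miR-203 (log2 ratio -0.31) and miR-205 (-0.02) lay below 1. The 3 mesenchymal markers on the array (miR-199a-3p, miR-199a-5p and miR-214) had ratios above 1 with a median of 0.26 and sums of 35.1 and 28.8. The 3 vessel markers detected (median 0.21) likewise lay above 1, with sums of 3.01 and 2.86 over the list of 4, whose other member, miR-145, was detected in neither region. The 5 blood markers had a median of -0.06, which was 0.06 to 0.10 under the other scalings, with sums of 7.90 and 6.03. Most of these sums came from miR-451 (7.23 and 5.32). Of the 5, 2 had ratios above 1 and 3 below it as reported, and 4 were above 1 under the other scalings. In both regions each marker of these lists was detected, apart from miR-145 and from miR-199b, which the array lacks. Over all miRNAs detected in both regions, 57.7% had ratios above 1, and 23.2% to 28.5% had ratios below 1 under the other scalings. The part of these cell types in the ratios of the family was not tested.

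2 groups of miRNAs known for related roles were read beside the family. The miR-29 miRNAs also target DNA methyltransferases. Of the 3, only miR-29c was detected in both regions, with a log2 ratio of -0.02 ± 0.06 that was 0.10 to 0.14 under the other scalings, while miR-29a passed detection in the flank alone and miR-29b in neither. Of 16 other miRNAs known to be abundant in milk, 14 were detected in both regions and 0 passed 1.5-fold (3 did, as higher, under 3 of the other scalings). Their median was 0.18, and 11 of the 14 had ratios above 1 (13 under the other scalings). Over all 284 miRNAs detected in both regions, 57.7% had ratios above 1. Under the other scalings 23.2% to 28.5% of all had ratios below 1. The list shares miR-141, miR-200a and miR-200c with the epithelial markers, so these lists are not separate readings. Of the 14, only let-7i (-0.46 ± 0.05) had a ratio below that of miR-148a, whereas miR-99a (0.57 ± 0.03) and miR-200a (0.51 ± 0.02) had the highest. miR-375 passed detection in the gland alone, and miR-146b in neither region.

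With 1 array per region a pattern is a single ratio, so likeness was taken as the smallest difference of log2 ratios among the miRNAs detected in both regions. Nearest to miR-148a were miR-712 (-0.40 ± 0.09), miR-486 (-0.39 ± 0.06) and miR-378 (-0.40 ± 0.02). Nearest to miR-148b were miR-411*, miR-25 and miR-93, each at 0.19 with an SE of 0.03. Nearest to miR-152 were miR-144 (0.15 ± 0.03), miR-151-5p (0.15 ± 0.05) and miR-99b (0.16 ± 0.03).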

How the data were processed

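Total RNA of each region was hybridized to 1 Agilent miRNA array. The arrays shared a slide and a scan. Spots were quantified by the authors in Feature Extraction (version 10.7.3.1, per the file headers). The deposited spot intensity is linear, background-subtracted and unscaled between arrays. The deposited table lists the software's total intensity per miRNA, equal for all 696 miRNAs, with 0.1 where none was detected. GeneSpring GX is named in the methods as the normalization software, without settings.

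Groups followed the labels. Control spots and outlier spots (1.67% and 2.51% of miRNA spots) were left out, spots of a probe averaged, arrays divided by the 75th percentile of probes detected on both, and probes of a miRNA averaged. Errors were propagated from the SD over spots. Steps were tested on simulated spots with changes larger than those of the members, so recovery of differences as small as theirs was not tested. Members, marker lists, related lists and nearest ratios were fixed as the miRNAs to name; members and lists were chosen with earlier results of these data known. Alternatives covered scaling, signal column, outliers, probes, spot summary, detection, a dimness filter and threshold. Normexp used the median pixel signal and an offset of 50. Python 3.11.15, numpy 2.4.6, pandas 2.3.3, matplotlib 3.10.9, R 4.3.3 and limma 3.58.1 were used. The number of arrays limits the precision.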

Additional observations from a re-analysis of the deposited data

How the results depend on the processing

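No paired analysis was possible because there was a single array of each tissue. No alternative turned the direction of a member, brought one past 1.5-fold or lost its detection. Differences between members were added as results after the data had been seen. The log2 ratios that moved by more than their SE over spots were, for miR-148a, miR-148b and miR-152 in this order, -0.27, 0.31 and 0.28 with no scaling, -0.24, 0.34 and 0.31 where the 75th percentile covered all probes, -0.28, 0.30 and 0.27 with the median of the detected probes, -0.30, 0.28 and 0.25 with the scaled totals, -0.24, 0.35 and 0.31 with the unscaled totals and with the deposited table, and -0.46, 0.12 and 0.091 with every spot required well above background. Quantile normalization gave 0.29 for miR-148b and 0.26 for miR-152, normexp -0.36 for miR-148a and 0.11 for miR-148b, the median of the spots -0.44 for miR-148a, and the brightest probe 0.14 for miR-148b. The excess of miR-148b over miR-148a was 0.68 after quantile normalization, 0.47 after normexp and 0.53 with the brightest probe. That of miR-152 over miR-148a was 0.64 and 0.47 under the first 2 of these. The 32 miRNAs past 1.5-fold in all became 20 after normexp and 16 at a threshold of 2-fold, and rose to 46 (13 higher, 33 lower) with the software's call of detection, which took in 323 miRNAs, and to 41 (20 higher, 21 lower) with the unscaled totals and the deposited table. The cause was not tested, apart from the stricter threshold. Signal over background limits the first probe of miR-148b most, the dimmest of the family.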
